A study of Danio rerio with 24 samples.

Results

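The livers described here came from zebrafish larvae without functional Mtm1 and from WT larvae. *mtm* larvae are homozygous for a loss-of-function mutation in *mtm1* (allele zf711), the single zebrafish copy of the gene that is mutated in X-linked myotubular myopathy, and the mutation is present in every tissue of the animal, not only in the liver. WT larvae were of the AB strain, and the labels do not state that they were siblings of the mutants. All livers were dissected at 7 dpf and pooled, 40 livers to a library, without sorting of cells and without any treatment. Of the 24 libraries of the series, 10 were compared, 4 from WT livers (replicates 1 to 4) and 6 from *mtm* livers. Replicates 1, 2 and 3 of the *mtm* livers are called the first submission here. The names of R1, R2 and R3 carry the tag resub, with 1 date for R1 and another for R2 and R3. These 3 are called the second submission, or resubmitted libraries, although they may not form a single batch. No WT library carries the tag, so a difference between the submissions cannot be followed in WT livers. It is also unknown whether R1, R2 and R3 came from new pools. P-values therefore measure the spread between libraries, part of which may be technical. Livers of WT larvae that were kept in 2% ethanol for 32 hours (EtOH, 4 libraries of the same experiment) are described below only to place single genes and some gene lists. The EtOH libraries and 4 libraries of WT larvae given 6 times the normal food (overfed) also entered the fit behind the adjusted p-values below. That fit held 18 libraries, and all of them helped to set its estimate of the spread and its replicate terms. The genes described are the 13154 of 19793 genes in the table whose counts summed to 100 or more over the 10 libraries, and the account concentrates on genes other than those of inflammation, cholesterol synthesis and canalicular transport.

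Mtm1 is a lipid phosphatase. It removes a phosphate from phosphatidylinositol 3-phosphate and phosphatidylinositol 3,5-bisphosphate, the lipids that mark endosomes, and so takes part in the maturation of endosomes and the return of cargo to the cell surface through Rab11 compartments. Hepatocytes use that recycling route to deliver proteins to the canalicular membrane, and they also carry most of the larva's lipid, sugar, amino acid and plasma protein metabolism. Bulk RNA from a whole liver holds hepatocytes together with bile duct, endothelial, stellate and immune cells, and in such RNA fewer cells of a type and less RNA per cell cannot be told apart.

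Between 9297847 and 17717723 reads were assigned to genes in WT libraries and between 8919274 and 15831830 in *mtm* libraries. *apoa1b* and *apoa2* together took 19.4 to 25.8% of the reads in WT libraries, 14.98% in *mtm* replicate 1 and 3.67 to 8.09% in the other *mtm* libraries. Values are therefore given in CPM after TMM scaling of the libraries, which sets the typical gene, not the total, equal between libraries. *mtm* replicate R2 stood apart from its group, with the fewest genes detected (12957) and correlations of log2 CPM with the other *mtm* libraries of 0.71 to 0.77. Pancreatic transcripts from adjoining tissue were high in WT replicate 4 and *mtm* replicate 1, as given below. For *mtm1* itself WT replicates 1 to 4 gave 4.94, 4.52, 3.196 and 7.94 CPM, against 2.27, 2.34, 1.05, 0.558, 0.162 and 0.669 CPM in *mtm* replicates 1, 2, 3, R1, R2 and R3. After TMM scaling the highest *mtm* library was thus under the lowest WT library (exact permutation test of mean log2 CPM, two-sided, p = 0.0095, the smallest that 6 against 4 allows). With library totals in place of TMM the same permutation test gave p = 0.019, so the groups were then not fully apart. The test across all genes did not call *mtm1* (log2 fold change −1.82, SE 0.73, adjusted p = 0.10). Reads of the mutant transcript can still be counted, so the level checks the labels without measuring the protein.

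A gene was called where its p, adjusted by the Benjamini-Hochberg method, was under 0.05 in the quasi-likelihood fit of edgeR, the source of all adjusted p-values below. Of the 13154 genes, 1281 were higher in *mtm* livers (9.74%) and 1038 lower (7.89%), with median log2 fold changes of 1.94 and −1.80 among them. Changes of more than 4-fold were called for 614 genes upward (4.67%) and 461 downward (3.50%). Every *mtm* library was above every WT library for 905 genes (6.88%) and below for 844 (6.42%). These percentages are the background for the gene lists that follow. Each list is described by its count of called genes and its median log2 fold change, beside a median of 0.06 over all tested genes. Subfamilies within a list are given by counts, with medians for the respiratory complexes in a figure and for the ATP synthase in the text. No list was tested as a set. Scaling to library totals in place of TMM moved that overall median to 0.41 and the share of calls that were upward from 55.2 to 74.3%, so each direction below is relative to the typical gene. The counts of higher genes were 804, 834 and 796 without WT replicates 1, 2 and 3. Each *mtm* submission alone, against the same WT libraries, called 697 of the 1281 higher and 597 of the 1038 lower genes again in both. Between the submissions no gene was called by edgeR (908 at an unadjusted p under 0.05), while DESeq2 called 100 higher and 26 lower in the resubmitted libraries.

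**Figure D1:**
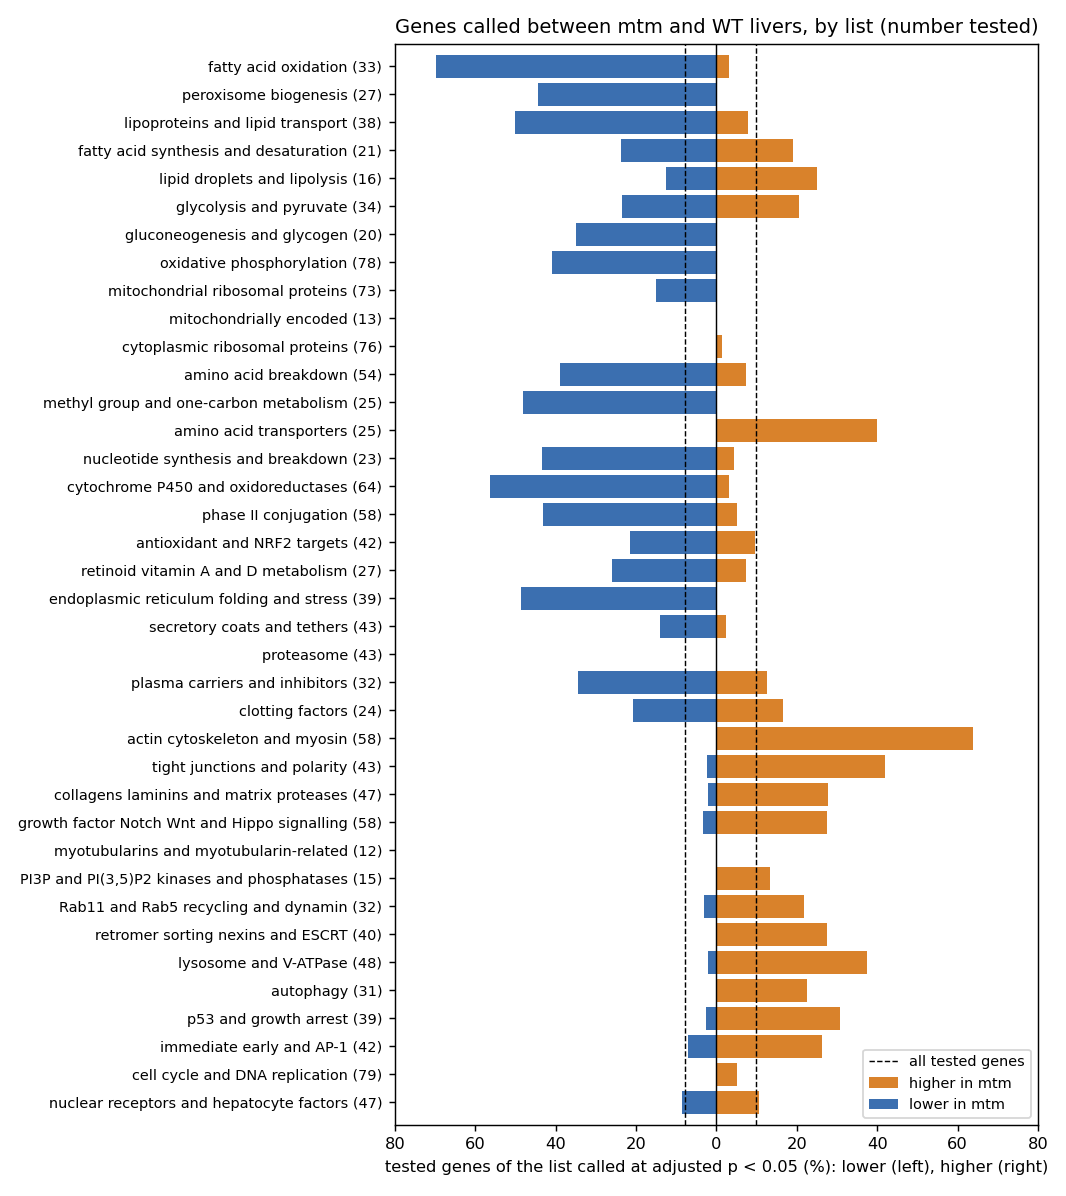
Share of the tested genes of each list that were higher (orange, to the right) or lower (blue, to the left) in *mtm* than in WT livers at an adjusted p under 0.05, with the number of tested genes beside each name. The dashed lines mark the shares over all 13154 tested genes, 9.74% higher and 7.89% lower.

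Transcripts of fatty acid oxidation fell at most of its steps. Of 33 tested genes, 23 were lower and 1 higher, with a median log2 fold change of −1.80. The mitochondrial thiolase *acaa2* was at 881, 527, 987 and 831 CPM in WT livers and at 110.4 to 246 CPM with a median of 146 in *mtm* livers (log2 fold change −2.28, SE 0.23, adjusted p = 1.0e-05). *hadh*, which carries out the step before the thiolase, was at 192, 128, 138 and 95.8 CPM in WT livers against 9.46 to 43.1 CPM with a median of 18.99 (log2 fold change −2.88, SE 0.28, adjusted p = 5.2e-06). For both genes all 6 *mtm* libraries lay below all 4 WT libraries. The fall reached the carnitine shuttle that brings fatty acids into mitochondria, with *slc25a20* at 408 to 507 CPM in WT and 60.2 to 164 CPM in *mtm* livers (log2 fold change −2.02, SE 0.25, adjusted p = 5.5e-05), and the medium-chain dehydrogenase *acadm* (log2 fold change −1.80, SE 0.27, adjusted p = 2.0e-04). The trifunctional protein subunit genes *hadhaa* and *hadhb* fell as well (log2 fold change −2.35 and −1.599, adjusted p = 4.1e-04 and 6.7e-04). The exception was *acsl4a*, an acyl-CoA synthetase that prefers arachidonic acid, at 14.6 to 35.3 CPM in WT and 77.1 to 163 CPM in *mtm* livers (log2 fold change 2.17, SE 0.35, adjusted p = 4.1e-04). Ketone body metabolism moved the same way where it was called, with *bdh2* at 81.2 to 119 CPM in WT and 22.02 to 32.4 CPM in *mtm* livers (log2 fold change −1.86, SE 0.21, adjusted p = 2.2e-05). Over every alternative the number of lower genes of fatty acid oxidation stayed between 22 and 25 of 33.

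Peroxisomes, which shorten very long and branched fatty acids and hold catalase, followed. Of 27 tested genes of peroxisome biogenesis and function, 12 were lower and 0 higher, and all 27 had a negative log2 fold change (median −1.19). Peroxisomal enzymes counted above with fatty acid oxidation fell as well. The peroxisomal thiolase *acaa1* was at 337, 205, 256 and 232 CPM in WT livers and at 20.7 to 54.2 CPM with a median of 28.9 in *mtm* livers (log2 fold change −2.95, SE 0.28, adjusted p = 4.3e-06). *hsd17b4*, the bifunctional enzyme that acts before it, was at 99.9, 82.8, 133 and 140.4 CPM against 2.57 to 22.3 CPM with a median of 6.26 (log2 fold change −3.64, SE 0.50, adjusted p = 1.1e-04). The largest fall of the peroxisome list was that of *pipox*, which oxidises pipecolic acid and sarcosine, at 72.1, 30.2, 42.5 and 35.4 CPM in WT livers and at no more than 1.73 CPM in any *mtm* library (log2 fold change −6.72, SE 0.87, adjusted p = 7.2e-05). Catalase (*cat*) was at 713 to 1113 CPM in WT and 78.4 to 298 CPM in *mtm* livers (log2 fold change −2.72, SE 0.32, adjusted p = 3.6e-05), and *phyh*, which starts the breakdown of phytanic acid, at 384 to 688 CPM in WT and 31.8 to 188 CPM in *mtm* livers (log2 fold change −3.06, SE 0.39, adjusted p = 6.0e-05). The assembly factor *pex3* fell (log2 fold change −2.41, SE 0.38, adjusted p = 3.9e-04), as did *acad11*, an acyl-CoA dehydrogenase of the oxidation list (log2 fold change −3.65, SE 0.42, adjusted p = 2.7e-05). In none of these 7 genes did the groups overlap.

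**Figure D2:**
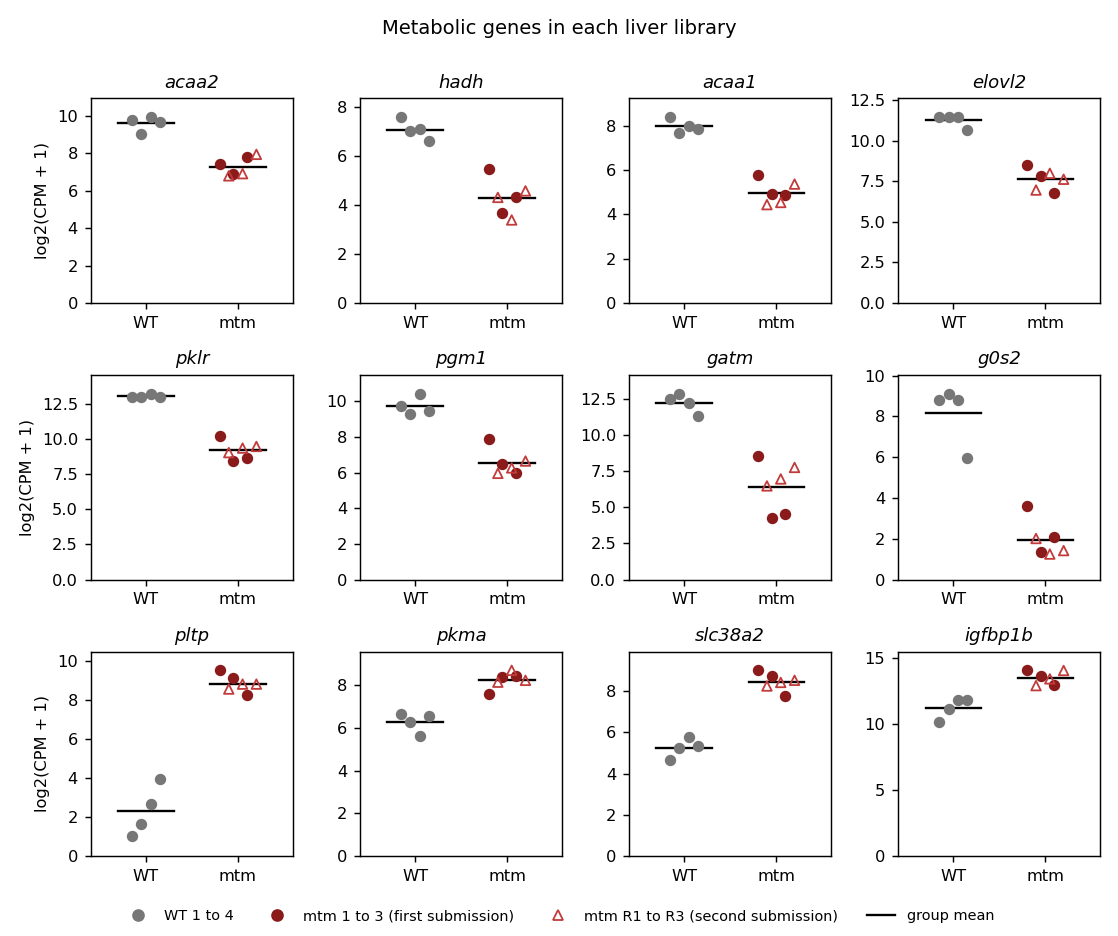
Level of 12 metabolic genes in each library (log2 of CPM + 1, vertical axis), WT replicates 1 to 4 (grey) and *mtm* libraries of the first (dark red circles) and second submission (open triangles), with a bar at each group mean. *acaa2*, *hadh*, *acaa1*, *elovl2*, *pklr*, *pgm1*, *gatm* and *g0s2* are lower in every *mtm* library than in any WT library, while *pltp*, *pkma*, *slc38a2* and *igfbp1b* are higher in every one.

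Transcripts of lipid export and storage changed in both directions. Of 38 tested genes of lipoproteins and lipid transport, 19 were lower and 3 higher, 5 higher without *mtm* replicate 3 (median −1.203), and among the 16 apolipoprotein genes 12 were lower and 1 higher. *apoba* and *apobb.1*, which encode the core protein of secreted lipoproteins, were at 1818 to 2430.3 CPM in WT and 146 to 651 CPM in *mtm* livers (log2 fold change −2.93, SE 0.38, adjusted p = 6.7e-05) and at 4104 to 6374 CPM in WT and 525 to 2429.6 CPM in *mtm* livers (log2 fold change −2.27, SE 0.36, adjusted p = 3.3e-04). *apoa4b.1* was at 4752, 2988, 5846 and 4504 CPM in WT livers and at 146 to 1022 CPM with a median of 208 in *mtm* livers (log2 fold change −3.80, SE 0.45, adjusted p = 3.7e-05), and *apoa2*, one of the most abundant transcripts of the WT liver, at 82787 to 157730 CPM in WT and 9695 to 68777 CPM in *mtm* livers (log2 fold change −2.63, SE 0.46, adjusted p = 8.7e-04). The lipoprotein lipase activator *apoc2* also fell (log2 fold change −2.55, SE 0.39, adjusted p = 2.5e-04). *apoeb*, the ligand that remnant receptors bind, was the apolipoprotein that rose, at 257 to 841 CPM in WT and 1297 to 2748 CPM in *mtm* livers (log2 fold change 2.32, SE 0.41, adjusted p = 8.5e-04), together with the receptor gene *lrp1ab* (log2 fold change 1.85, SE 0.30, adjusted p = 4.5e-04). *apoeb* is also on the list of macrophage markers given below, and the part of macrophages in its rise was not tested. *fabp2*, an intestinal fatty acid binding protein, was at 249, 534, 289.8 and 66.4 CPM in WT livers and 0.642 to 34.3 CPM with a median of 8.92 in *mtm* livers (log2 fold change −4.49, SE 0.76, adjusted p = 6.3e-04). The list called intestine, a measure of adjoining gut, shares *fabp2*, *apoa4b.1*, *apoa1b* and *fabp6* with this group. Gut in the dissected tissue and hepatocyte expression cannot be told apart for these genes. *fabp6*, which was higher in *mtm* livers, is given below.

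On the list of lipid droplets and lipolysis 4 of 16 genes were higher and 2 lower (median 0.97). The 2 largest changes of the list were opposite in sign. *g0s2*, which in mammals inhibits the main triglyceride lipase, was at 446, 552, 453 and 61.4 CPM in WT livers and at 1.37 to 11.2 CPM with a median of 2.35 in *mtm* livers (log2 fold change −7.05, SE 0.79, adjusted p = 2.2e-05). *pltp*, the phospholipid transfer protein, was at 1.03, 2.16, 5.33 and 14.7 CPM in WT livers and at 305 to 743 CPM with a median of 454 in *mtm* livers (log2 fold change 7.17, SE 0.58, adjusted p = 1.5e-06), the second of the 15 largest rises among named genes with no overlap and a mean of at least 10 CPM, counted outside the lists of inflammatory mediators, cholesterol synthesis and hepatobiliary transporters, as are the 15 largest falls below. The monoacylglycerol lipase *mgll* was at 76.4 to 87.6 CPM in WT and 128 to 564 CPM in *mtm* livers (log2 fold change 2.09, SE 0.38, adjusted p = 0.0010), and the droplet protein *pnpla3* at 49.7 to 127 CPM in WT and 20.9 to 44.6 CPM in *mtm* livers (log2 fold change −1.78, SE 0.25, adjusted p = 1.5e-04). In fatty acid synthesis 4 of 21 genes were higher and 5 lower (median −0.38). Elongases for long polyunsaturated chains fell, with *elovl2* at 2838, 2828, 2798 and 1614 CPM in WT livers against 110.3 to 368 CPM with a median of 214 (log2 fold change −3.66, SE 0.33, adjusted p = 3.3e-06) and *elovl5* at 66.5 to 131 CPM in WT and 15.3 to 27.4 CPM in *mtm* livers (log2 fold change −2.17, SE 0.28, adjusted p = 7.2e-05), whereas *elovl1a*, for saturated chains, was at 1.41 to 2.77 CPM in WT and 5.61 to 21.1 CPM in *mtm* livers (log2 fold change 2.61, SE 0.62, adjusted p = 0.0070). *acss2l*, an acetyl-CoA synthetase, and *acacb*, the carboxylase isoform that makes malonyl-CoA at mitochondria, were lower (log2 fold change −4.78 and −2.62, adjusted p = 1.8e-06 and 0.0028). Synthesis of triglycerides and phospholipids showed 2 genes higher and 1 lower of 19 (median −0.26).

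In sugar metabolism, several isozymes and transporters typical of hepatocytes fell and several of other tissues rose. *pklr*, the liver pyruvate kinase, was at 8249.5, 7996, 9538 and 8170.2 CPM in WT livers and at 350.0 to 1176 CPM with a median of 586 in *mtm* livers (log2 fold change −3.72, SE 0.31, adjusted p = 1.7e-06). *pkma*, the isozyme of muscle and growing cells, was at 101, 77.5, 47.9 and 93.1 CPM against 192 to 417 CPM with a median of 317 (log2 fold change 2.04, SE 0.27, adjusted p = 7.5e-05). No *mtm* library overlapped a WT library in either gene. The glucose transporter *slc2a2* was at 262 to 460.3 CPM in WT and 30.4 to 166 CPM in *mtm* livers (log2 fold change −2.08, SE 0.37, adjusted p = 8.6e-04). Hexokinases with a high affinity for glucose moved upward, *hk1* at 1.85 to 4.31 CPM in WT and 16.8 to 61.6 CPM in *mtm* livers (log2 fold change 2.56, SE 0.50, adjusted p = 0.0017) and *hk2* at 0.341 to 7.67 CPM in WT and 12.11 to 24.1 CPM in *mtm* livers (log2 fold change 2.44, SE 0.56, adjusted p = 0.0057). *aldoaa* and *ldha*, the aldolase and lactate dehydrogenase of muscle, rose too (log2 fold change 2.27 and 1.77, adjusted p = 8.1e-05 and 0.0018). Glucokinase (*gck*) varied widely among WT livers, at 392, 574, 147 and 4.096 CPM, and was at 0.0808 to 15.3 CPM with a median of 2.66 in *mtm* livers (log2 fold change −5.81, SE 1.59, adjusted p = 0.017). Its groups overlapped through WT replicate 4, and its call was lost without WT replicate 1 (log2 fold change −5.20, adjusted p = 0.094) or WT replicate 2 (−5.08, adjusted p = 0.13). The call was also lost with the first or the second *mtm* submission alone (adjusted p = 0.11 and 0.070). With same-numbered *mtm* libraries summed it was lost too (adjusted p = 0.079). Of the 34 glycolysis genes 7 were higher and 8 lower (median −0.41), and the lower ones numbered 5 without WT replicate 1 and 5 without WT replicate 3.

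Genes of gluconeogenesis and glycogen handling were lower where they were called, 7 of 20, with none higher (median −0.68). *pgm1*, which interconverts glucose 1-phosphate and glucose 6-phosphate, was at 851, 624, 1374 and 713 CPM in WT livers and 61.0 to 237 CPM with a median of 81.7 in *mtm* livers (log2 fold change −3.13, SE 0.35, adjusted p = 2.2e-05). *ugp2a*, which makes UDP-glucose, was at 33.5 to 117 CPM in WT and 2.43 to 22.8 CPM in *mtm* livers (log2 fold change −2.59, SE 0.39, adjusted p = 2.5e-04), and the debranching enzyme *agla* at 101 to 174 CPM in WT and 25.9 to 80.9 CPM in *mtm* livers (log2 fold change −1.65, SE 0.32, adjusted p = 0.0017). *ppp1r3ca*, a subunit that targets protein phosphatase 1 to glycogen, was at 58.6, 54.8, 21.6 and 132 CPM against at most 2.75 CPM in *mtm* livers (log2 fold change −5.91, SE 0.91, adjusted p = 2.9e-04). *pck2*, the mitochondrial form of the enzyme that feeds gluconeogenesis, was at 587 to 1097 CPM in WT and 89.2 to 307 CPM in *mtm* livers (log2 fold change −2.31, SE 0.32, adjusted p = 1.2e-04). Genes for the entry of fructose were lower at each step that was called. *sord* makes fructose from sorbitol (log2 fold change −2.61, SE 0.32, adjusted p = 4.9e-05), *khk* phosphorylates it (log2 fold change −3.40, SE 0.43, adjusted p = 5.9e-05) and *tkfc* phosphorylates the triose that follows (log2 fold change −1.56, SE 0.23, adjusted p = 2.4e-04). In the pentose phosphate pathway *rpia* and *tktb* were lower (log2 fold change −2.28 and −1.78, adjusted p = 8.6e-05 and 2.7e-04). *txnipb*, whose mammalian counterpart restrains glucose uptake and is induced by glucose, was at 118, 47.6, 22.5 and 8.87 CPM in WT livers and at no more than 1.12 CPM in *mtm* livers (log2 fold change −7.25, SE 0.99, adjusted p = 1.1e-04), with WT livers themselves differing widely.

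Calls among mitochondrial genes fell on nuclear genes, and the difference between the genomes was not tested. Of 78 nuclear genes of oxidative phosphorylation, 32 were lower and 0 higher (median −0.56), whereas of the 13 genes that the mitochondrial genome encodes none was called by edgeR (median −0.02, 1 gene at an unadjusted p under 0.05 and 1 called by DESeq2). The proton-driven ATP synthase stood out, with 13 of the 18 genes named for it lower (median −0.81). Its catalytic subunit gene *atp5f1b* was at 1652, 1078, 2486 and 1439 CPM in WT livers and at 408 to 851 CPM with a median of 529 in *mtm* livers (log2 fold change −1.505, SE 0.26, adjusted p = 6.5e-04), and the ring subunit gene *atp5mc1* at 993, 532, 1285 and 496 CPM against 127 to 317 CPM with a median of 223 (log2 fold change −1.93, SE 0.27, adjusted p = 1.2e-04). Both pairs of ranges were apart. Genes named for complex I were lower in 9 of 42 cases, those of complex III in 3 of 6 and those of complex IV in 6 of 19. The 1 higher gene among those named for complex I was *ndufa4l2a*, outside the list of 78, at 12.22 to 35.8 CPM in WT and 111 to 485 CPM in *mtm* livers (log2 fold change 3.55, SE 0.53, adjusted p = 2.2e-04). *cox7a1*, a complex IV subunit of contractile tissues in mammals, was at 98.7 to 134 CPM in WT and 9.69 to 40.5 CPM in *mtm* livers (log2 fold change −2.54, SE 0.34, adjusted p = 8.4e-05). Mitochondrial transcripts were high in both groups but uneven among libraries, with a summed level of 80925 to 245884 CPM in WT and 109680 to 319334 CPM in *mtm* livers, and the subunit gene *COX1* was at 37765 ± 22866 CPM in WT and 62933 ± 27712 CPM in *mtm* livers (mean ± SD, adjusted p = 0.060, not called). Mitochondrial ribosomal proteins were lower in 11 of 73 cases, while 72 of the 73 had a negative log2 fold change (median −0.66), and cytoplasmic ribosomal proteins were higher in 1 and lower in 0 of 76 (median −0.02). The numbers of lower genes depended on library and scaling. For oxidative phosphorylation they were 19 without WT replicate 1 and 13 without WT replicate 3, and 13 with library totals in place of TMM. For mitochondrial ribosomal proteins they were 7 without WT replicate 3, 25 without *mtm* replicate 2 and 20 without *mtm* replicate R2. With library totals the median was −0.19 for oxidative phosphorylation and 0.28 for mitochondrially encoded genes, of which 3 were then called higher. The median of mitochondrially encoded genes was −0.30 without *mtm* replicate R2.

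**Figure D3:**
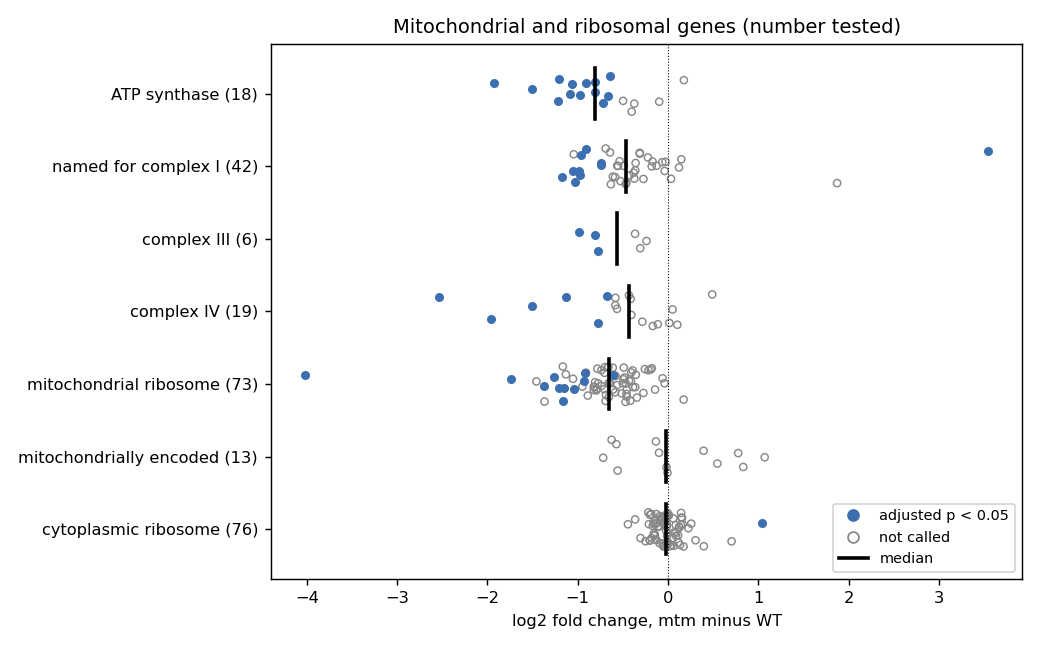
Log2 fold change between *mtm* and WT livers of each tested gene (horizontal axis, 1 point per gene, filled where the adjusted p was under 0.05) in 7 groups, with a bar at the median of each group. By median the ATP synthase genes lie furthest to the left of the respiratory complexes (−0.81), and the mitochondrially encoded and cytoplasmic ribosomal genes are centred near 0 (medians −0.02 and −0.02).

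Transcripts of amino acid catabolism fell at many of its entry steps and rose for a few transaminases. Of 54 tested genes, 21 were lower and 4 higher (median −0.73). *cdo1*, which commits cysteine to taurine and sulfate, was at 587, 448, 591 and 299 CPM in WT livers and at 29.0 to 103.4 CPM with a median of 65.7 in *mtm* livers (log2 fold change −2.93, SE 0.31, adjusted p = 1.6e-05). The kynurenine route of tryptophan was lower at successive enzymes, *tdo2a* at 1559 to 2866 CPM in WT and 285 to 1175 CPM in *mtm* livers (log2 fold change −1.62, SE 0.38, adjusted p = 0.0066), *kmo* at 139 to 227 CPM in WT and 30.5 to 107 CPM in *mtm* livers (log2 fold change −1.79, SE 0.32, adjusted p = 9.5e-04) and *kynu* at 145 to 204 CPM in WT and 37.1 to 87.1 CPM in *mtm* livers (log2 fold change −1.64, SE 0.25, adjusted p = 2.6e-04). Part of the glycine cleavage system, *gcshb*, fell (log2 fold change −2.06, SE 0.25, adjusted p = 4.2e-05). Tyrosine aminotransferase (*tat*), the first enzyme of tyrosine breakdown, was among the 10 largest gains in mean CPM, at 659, 739, 2795 and 2192 CPM in WT livers and 5065 to 10944 CPM with a median of 8085 in *mtm* livers (log2 fold change 2.48, SE 0.57, adjusted p = 0.0057). The aspartate aminotransferase *got1* was at 106 to 239 CPM in WT and 356 to 709 CPM in *mtm* livers (log2 fold change 1.74, SE 0.27, adjusted p = 3.1e-04). Both transaminases were higher in every *mtm* library than in any WT library.

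Creatine synthesis showed one of the largest losses of transcript. *gatm*, the first of its enzymes, was at 5798, 7598, 4818 and 2570.4 CPM in WT livers and at 18.1 to 373 CPM with a median of 107 in *mtm* livers (log2 fold change −5.44, SE 0.67, adjusted p = 5.0e-05). *gamt*, the second, was at 3934, 3419.7, 4369 and 4888 CPM against 270.3 to 1452 CPM with a median of 465 (log2 fold change −2.75, SE 0.39, adjusted p = 1.4e-04). Both were among the 10 largest losses of mean CPM. Of the 25 genes of methyl group and one-carbon metabolism that hold them, 12 were lower and none higher (median −1.15), including the methionine synthase *mtr* (log2 fold change −2.44, SE 0.47, adjusted p = 0.0017), which remakes methionine from homocysteine. In nucleotide metabolism 10 of 23 genes were lower and 1 higher (median −0.47), among them *paics* of purine synthesis at 34.6 to 51.4 CPM in WT and 5.42 to 12.9 CPM in *mtm* livers (log2 fold change −2.24, SE 0.28, adjusted p = 4.9e-05) and *dpys* and *upb1*, which degrade pyrimidines (log2 fold change −2.29 and −2.21, adjusted p = 5.6e-04 and 0.0012). The 10 became 6 without WT replicate 3.

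Transporters that import amino acids moved the other way, with 10 of 25 higher and none lower (median 0.89). *slc38a2*, a sodium-coupled carrier of small neutral amino acids, was at 24.1, 36.4, 52.8 and 39.3 CPM in WT livers and at 219 to 512 CPM with a median of 354 in *mtm* livers (log2 fold change 3.26, SE 0.36, adjusted p = 2.2e-05). The glutamine carrier *slc1a5* was at 21.7 to 27.8 CPM in WT and 52.99 to 84.3 CPM in *mtm* livers (log2 fold change 1.38, SE 0.27, adjusted p = 0.0017). The count of 10 fell to 4 without WT replicate 1 and 5 without WT replicate 3. The transcription factors of the amino acid response, *atf4a* and *atf4b*, were at 43.9 to 73.1 CPM in WT and 99.9 to 167 CPM in *mtm* livers (log2 fold change 1.097, SE 0.21, adjusted p = 0.0018) and at 80.4 to 102 CPM in WT and 186 to 365 CPM in *mtm* livers (log2 fold change 1.48, SE 0.23, adjusted p = 2.6e-04). The call of *atf4a* was lost with only the 10 *mtm* and WT libraries and the replicate block (log2 fold change 0.99, adjusted p = 0.051). The list that holds both genes pools tRNA synthetases with genes of the amino acid response. It therefore cannot show how the response genes alone moved. Of its 36 genes 5 were higher, *atf4a* and *atf4b* among them, and 5 lower, and 24 had a negative log2 fold change (median −0.55). The 5 lower genes were 11 without *mtm* replicate 1 and 2 without WT replicate 3.

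Transcripts of enzymes that handle foreign compounds fell broadly. Of 64 cytochromes P450 and oxidoreductases, 36 were lower and 2 higher (median −1.23). The Cyp2 family, which is expanded in fish, held 16 lower and 2 higher genes of 29. *cyp2x9* was at 163, 73.1, 129.8 and 57.3 CPM in WT livers and at 0.734 to 8.69 CPM with a median of 1.76 in *mtm* livers (log2 fold change −5.28, SE 0.56, adjusted p = 1.6e-05), and *cyp2x8* at 6.16 to 10.6 CPM in WT and 0.0808 to 0.275 CPM in *mtm* livers (log2 fold change −5.77, SE 0.51, adjusted p = 2.9e-06). *cyp2x12* was at 5.002, 6.78, 9.09 and 9.90 CPM in WT livers with no read in any *mtm* library, which is at least 241-fold lower against a floor of 3 counts over the group. These neighbours are similar in sequence, so reads can be shared among them. The alcohol dehydrogenase *adh8a* was at 24.1, 42.0, 46.7 and 21.6 CPM against at most 1.91 CPM (log2 fold change −6.22, SE 0.84, adjusted p = 9.4e-05), and monoamine oxidase (*mao*) at 131 to 244 CPM in WT and 11.4 to 46.9 CPM in *mtm* livers (log2 fold change −2.90, SE 0.31, adjusted p = 1.6e-05). A further pair of oxidoreductases outside the list were among the 15 largest falls, *cyb5r2* at 59.22 to 370.4 CPM in WT and 1.25 to 6.69 CPM in *mtm* livers (log2 fold change −5.91, SE 0.52, adjusted p = 3.0e-06) and *akr1a1a* at 57.2 to 136 CPM in WT and 0.0797 to 6.15 CPM in *mtm* livers (log2 fold change −5.62, SE 0.94, adjusted p = 5.3e-04).

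Conjugation followed, with 25 of 58 genes lower and 3 higher (median −1.23). Glutathione transferases were lower in 10 of 15 cases. *gstr*, with the smallest adjusted p of any listed gene outside cholesterol synthesis, was at 887, 675, 793 and 927 CPM in WT livers and 37.9 to 79.4 CPM with a median of 50.3 in *mtm* livers (log2 fold change −3.83, SE 0.25, adjusted p = 2.1e-07). *gstp1* was at 613, 342, 854 and 285 CPM against 39.0 to 97.3 CPM with a median of 82.0 (log2 fold change −2.86, SE 0.30, adjusted p = 1.3e-05), and *gstk1*, the form of mitochondria and peroxisomes, at 77.9 to 185 CPM in WT and 6.56 to 25.6 CPM in *mtm* livers (log2 fold change −3.29, SE 0.31, adjusted p = 4.1e-06). Of 13 sulfotransferases 5 were lower, such as *sult1st3* (log2 fold change −3.50, SE 0.54, adjusted p = 3.1e-04), and 2 higher. One of the latter, *sult3st4*, was at 0.898, 3.70, 4.97 and 3.07 CPM in WT livers and at 72.7 to 255 CPM with a median of 141 in *mtm* livers (log2 fold change 5.51, SE 0.90, adjusted p = 4.6e-04). Glucuronosyltransferases were lower in 6 of 19 cases.

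Of 42 antioxidant genes (median −0.17) 9 were lower and 4 higher, 7 higher without *mtm* replicate R2. Cytosolic superoxide dismutase (*sod1*) and the peroxiredoxin *prdx2* were lower, at 265 to 446 CPM in WT and 85.5 to 199 CPM in *mtm* livers (log2 fold change −1.67, SE 0.23, adjusted p = 1.2e-04) and at 1019 to 1358 CPM in WT and 216 to 591 CPM in *mtm* livers (log2 fold change −1.86, SE 0.25, adjusted p = 9.6e-05). Heme oxygenase (*hmox1a*), which degrades heme and releases its iron, was at 17.4, 46.2, 21.9 and 44.0 CPM in WT livers and at 228 to 463 CPM with a median of 383 in *mtm* livers (log2 fold change 3.89, SE 0.61, adjusted p = 3.1e-04). Among 7 ferritin heavy-chain genes, which store iron, 5 were higher and 2 lower. *fthl27* was at 263 to 480.0 CPM in WT and 1412 to 3205 CPM in *mtm* livers (log2 fold change 2.77, SE 0.42, adjusted p = 2.4e-04) and *fthl28* at 6.28 to 19.3 CPM in WT and 119.9 to 369 CPM in *mtm* livers (log2 fold change 4.06, SE 0.43, adjusted p = 1.5e-05), while *fth1b* was at 21.8 to 58.9 CPM in WT and 4.15 to 9.06 CPM in *mtm* livers (log2 fold change −2.75, SE 0.27, adjusted p = 7.2e-06). *hpx a*, by its name a gene of hemopexin, the plasma carrier of free heme, was at 119.9, 231, 305 and 264 CPM in WT livers and at 0.0797 to 17.1 CPM with a median of 0.657 in *mtm* livers (log2 fold change −7.29, SE 1.09, adjusted p = 2.3e-04). The fthl genes are close copies of each other, so that counts may be exchanged among them. The copper exporter *atp7b* was at 12.202 to 27.3 CPM in WT and 1.42 to 6.15 CPM in *mtm* livers (log2 fold change −2.69, SE 0.42, adjusted p = 3.1e-04).

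Of 27 genes of retinoid and vitamin D metabolism 7 were lower and 2 higher (median −0.16). *rbp2a*, a carrier of retinol inside the cell, was at 451, 616, 438 and 283 CPM in WT livers and at 6.06 to 30.5 CPM with a median of 12.4 in *mtm* livers (log2 fold change −5.04, SE 0.38, adjusted p = 7.6e-07). *cyp26b1*, which degrades retinoic acid, was at 3.33, 5.95, 6.04 and 31.1 CPM against 53.3 to 108 CPM with a median of 67.2 (log2 fold change 3.68, SE 0.49, adjusted p = 8.6e-05). *cyp27b1*, the enzyme that activates vitamin D, was at 3.33 to 11.03 CPM in WT and 0 to 0.398 CPM in *mtm* livers (log2 fold change −6.24, SE 1.02, adjusted p = 4.5e-04). *cyp24a1*, which inactivates it, was at 548, 511, 1351 and 2075 CPM in WT livers and at 1958 to 6424 CPM with a median of 3746 in *mtm* livers (log2 fold change 2.03, SE 0.59, adjusted p = 0.024), with WT replicate 4 above the lowest *mtm* library. Its call was lost without WT replicate 1 (1.72, adjusted p = 0.12), 2 (1.70, adjusted p = 0.12) or 3 (2.04, adjusted p = 0.079), and with the first submission alone (2.18, adjusted p = 0.059).

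Transcripts for protein folding in the endoplasmic reticulum were lower. Of 39 tested genes 19 were lower and 0 higher, and 36 had a negative log2 fold change (median −0.93). The chaperone *hsp90b1* was at 815, 494, 828 and 692 CPM in WT livers and at 42.4 to 193 CPM with a median of 118 in *mtm* livers (log2 fold change −2.83, SE 0.29, adjusted p = 1.2e-05). The disulfide isomerase *pdia6* was at 102 to 204 CPM in WT and 14.8 to 45.5 CPM in *mtm* livers (log2 fold change −2.49, SE 0.30, adjusted p = 3.9e-05) and calreticulin (*calr*) at 136 to 269 CPM in WT and 34.3 to 105 CPM in *mtm* livers (log2 fold change −1.73, SE 0.26, adjusted p = 2.0e-04). *hspa5*, the chaperone induced when unfolded proteins build up, was at 112 to 772 CPM in WT and 60.1 to 159 CPM in *mtm* livers, with overlapping ranges (log2 fold change −2.03, SE 0.37, adjusted p = 0.0012). The cargo receptor *lman1* was the leading fall among secretory coats and tethers (log2 fold change −1.93, SE 0.37, adjusted p = 0.0016), a list with 6 of 43 genes lower and 1 higher whose median log2 fold change was −0.21, and 0.14 with library totals. Of 43 proteasome genes (median −0.03) edgeR called none (3 at an unadjusted p under 0.05, 1 called by DESeq2). The 19 were 10 without WT replicate 3, and 11 with library totals in place of TMM. The 6 were 13 without *mtm* replicate 1.

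Transcripts of plasma proteins made by hepatocytes fell more often than they rose, 11 against 4 of 32 (median −0.90). The fetuins *ahsg2* and *fetub* were at 879.9, 924, 1600.5 and 1647 CPM in WT livers against 25.6 to 206 CPM with a median of 53.7 (log2 fold change −4.14, SE 0.52, adjusted p = 5.7e-05), and at 12914 to 34328 CPM in WT and 2487 to 9377 CPM in *mtm* livers (log2 fold change −2.26, SE 0.37, adjusted p = 4.6e-04). *fetub* was among the 10 largest losses of mean CPM. Among binding proteins of insulin-like growth factors, *igfbp2a* was at 328 to 770.3 CPM in WT and 32.3 to 209.9 CPM in *mtm* livers (log2 fold change −2.77, SE 0.42, adjusted p = 2.4e-04), while *igfbp1b*, which in mammals rises with fasting and stress, was at 1122, 2225, 3596 and 3586 CPM in WT livers and at 7724 to 17273 CPM with a median of 12075 in *mtm* livers (log2 fold change 2.37, SE 0.41, adjusted p = 6.7e-04). Angiotensinogen (*agt*) was at 270.2 to 805 CPM in WT and 1258 to 3075 CPM in *mtm* livers (log2 fold change 2.05, SE 0.38, adjusted p = 0.0012). Of 24 clotting genes (median −0.08) 4 were higher and 5 lower, the largest rise being *tfpia*, the inhibitor of the tissue factor pathway, at 31.9 to 109 CPM in WT and 156 to 486 CPM in *mtm* livers (log2 fold change 3.03, SE 0.34, adjusted p = 2.4e-05). Without *mtm* replicate 1 the lower plasma proteins numbered 20. The lower clotting genes were 2 without WT replicate 2 and 3 without WT replicate 3.

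Against these falls stood a rise of structural genes. Of 58 tested genes of the actin cytoskeleton and myosin 37 were higher and none lower (median 1.303), the largest share of higher genes in any list of more than 25 genes other than the inflammatory one. Filamin (*flna*), which crosslinks actin, was at 15.2, 14.9, 12.002 and 21.5 CPM in WT livers and at 70.4 to 222 CPM with a median of 183 in *mtm* livers (log2 fold change 3.50, SE 0.41, adjusted p = 3.6e-05). *tmsb4x*, which holds actin monomers, was at 528, 526, 661 and 1008 CPM against 1430.5 to 6202 CPM with a median of 4637 (log2 fold change 2.76, SE 0.40, adjusted p = 1.9e-04), and non-muscle myosin (*myh9a*) at 23.3 to 51.1 CPM in WT and 85.6 to 328 CPM in *mtm* livers (log2 fold change 2.26, SE 0.39, adjusted p = 6.8e-04). *arpc1b*, a subunit of the complex that branches actin, was at 3.59 to 10.6 CPM in WT and 38.7 to 136 CPM in *mtm* livers (log2 fold change 3.93, SE 0.56, adjusted p = 1.5e-04). Several members are strongly expressed by leukocytes. Over the same libraries the macrophage list, with 16 of 22 genes higher and all 22 positive (median 3.63), summed to 479 to 1135 CPM in WT and 1953 to 4670.1 CPM in *mtm* livers, and the neutrophil list, with 13 of 17 higher (median 2.87), to 529 to 8515 CPM in WT and 1198 to 5384 CPM in *mtm* livers. The macrophage receptor *marco* was at 0.426 to 3.39 CPM in WT and 25.5 to 66.8 CPM in *mtm* livers, and the pan-leukocyte gene *ptprc* at 0 to 1.48 CPM in WT and 8.74 to 24.4 CPM in *mtm* livers. The neutrophil sum was highest in WT replicate 4. Their part in the rise of the actin genes was not tested.

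Genes of tight junctions, which seal the canaliculus, and of polarity proteins were higher in 18 and lower in 1 of 43 cases (median 1.39). The claudin *cldnc* was at 38.3, 60.8, 102.9 and 45.7 CPM in WT livers and at 312 to 648 CPM with a median of 429.9 in *mtm* livers (log2 fold change 2.85, SE 0.37, adjusted p = 7.5e-05), and *cldnb* at 7.31, 24.2, 35.9 and 8.87 CPM against 120.2 to 485 CPM with a median of 255 (log2 fold change 3.95, SE 0.71, adjusted p = 0.0010). Of 25 claudins 8 were higher and none lower. The scaffold *tjp1b* was at 17.7 to 32.3 CPM in WT and 49.9 to 134 CPM in *mtm* livers (log2 fold change 1.80, SE 0.30, adjusted p = 6.1e-04), E-cadherin (*cdh1*) at 53.7 to 100.3 CPM in WT and 123 to 315 CPM in *mtm* livers (log2 fold change 1.57, SE 0.27, adjusted p = 7.1e-04), and the polarity kinase *prkci* at 12.5 to 17.9 CPM in WT and 27.8 to 63.5 CPM in *mtm* livers (log2 fold change 1.69, SE 0.28, adjusted p = 5.5e-04). In each of these 5 genes every *mtm* library was above every WT library. Bile duct markers moved as well, 9 of 22 higher and none lower (median 1.396), with a summed level of 1526 to 3620.2 CPM in WT and 3174 to 6990.2 CPM in *mtm* livers whose lowest *mtm* value (replicate 1) lay below the highest WT value (replicate 4). *epcam* was at 24.4, 23.7, 18.96 and 71.8 CPM in WT livers and at 87.3 to 571 CPM with a median of 354 in *mtm* livers (log2 fold change 3.58, SE 0.54, adjusted p = 2.6e-04), and *sox9b*, a transcription factor of the ducts, at 16.05 to 25.9 CPM in WT and 48.9 to 213 CPM in *mtm* livers (log2 fold change 2.43, SE 0.38, adjusted p = 3.0e-04). *cldnc* is on both lists. The part of bile duct cells in the junction genes was not tested.

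**Figure D4:**
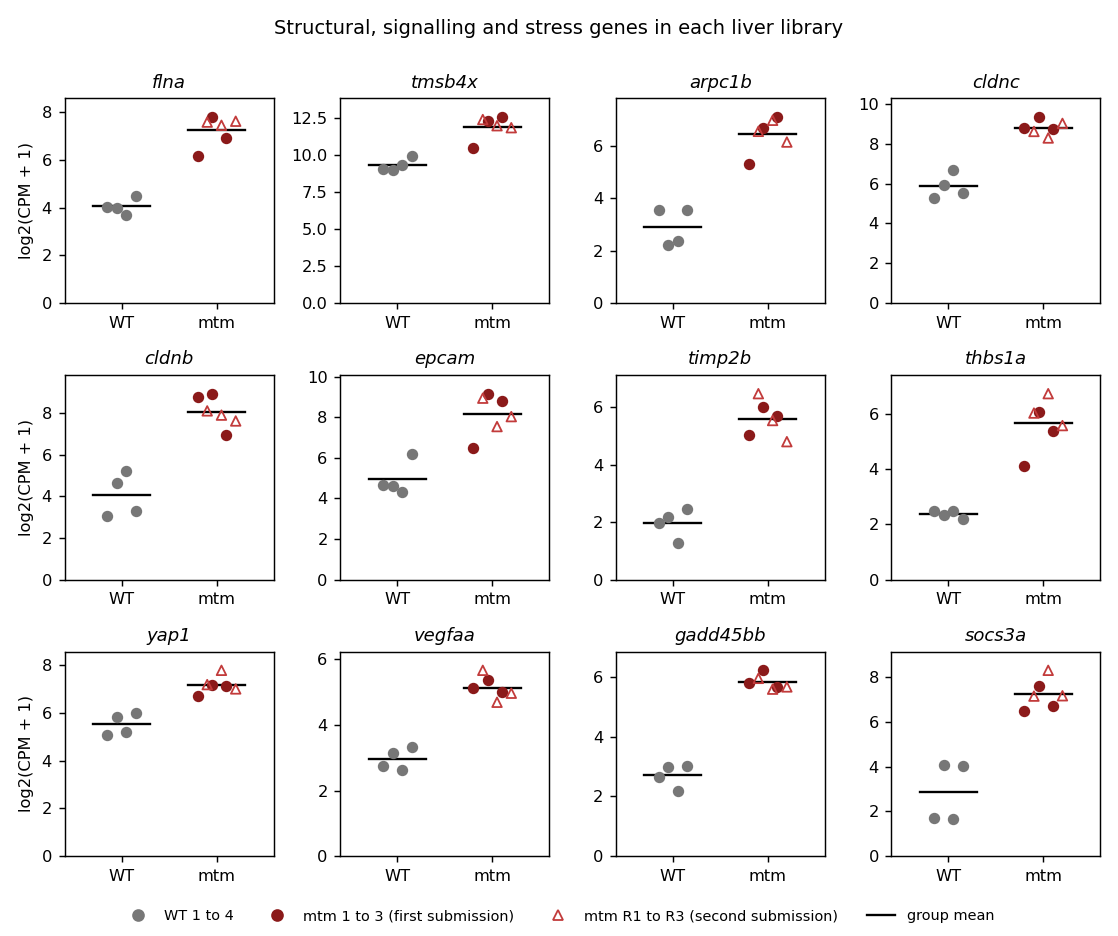
Level of 12 structural, signalling and stress genes in each library (log2 of CPM + 1, vertical axis), drawn as for the metabolic genes: WT in grey, *mtm* first submission as dark red circles, second submission as open triangles, bars at group means. All 12 are higher in every *mtm* library than in any WT library.

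Matrix and growth factor genes rose to a smaller extent. Of 47 collagens, laminins and matrix proteases 13 were higher and 1 lower (median 0.75). *timp2b*, an inhibitor of metalloproteases, was at 2.89, 3.49, 1.42 and 4.52 CPM in WT livers and at 26.9 to 88.0 CPM with a median of 48.2 in *mtm* livers (log2 fold change 4.37, SE 0.50, adjusted p = 2.7e-05). Thrombospondin (*thbs1a*) was at 4.68, 4.11, 4.69 and 3.58 CPM against 16.5 to 107 CPM with a median of 56.3 (log2 fold change 3.71, SE 0.44, adjusted p = 3.9e-05), and the basement membrane protein *nid1a* was the gene that fell (log2 fold change −1.46, SE 0.26, adjusted p = 0.0010). In growth factor, Notch, Wnt and Hippo signalling 16 of 58 genes were higher and 2 lower (median 0.94). The Hippo effector *yap1* was at 33.0, 55.1, 35.7 and 61.9 CPM in WT livers and 102 to 218 CPM with a median of 140.2 in *mtm* livers (log2 fold change 1.77, SE 0.22, adjusted p = 5.6e-05), and *vegfaa*, which drives the growth of vessels, at 5.11 to 8.96 CPM in WT and 24.8 to 49.7 CPM in *mtm* livers (log2 fold change 2.45, SE 0.35, adjusted p = 1.5e-04). *ankrd1b*, whose mammalian counterpart is a target of YAP, was among the 15 largest rises, at 0.898, 1.85, 0.355 and 0.256 CPM against 17.7 to 83.3 CPM with a median of 56.1 (log2 fold change 5.73, SE 0.72, adjusted p = 5.7e-05). The receptor genes *pdgfrb* of stellate and mural cells and *notch2* rose (log2 fold change 2.37 and 1.75, adjusted p = 4.8e-04 and 0.0016). Stellate cell markers as a list were higher in 7 of 20 cases (median 0.90), with 229 to 774 CPM in WT and 376 to 919.9 CPM in *mtm* livers in sum. These counts leaned on single libraries: 8 for the matrix list without WT replicate 3, and for the signalling list 10 without WT replicate 2 and 8 without WT replicate 3. For stellate cells they were 4 without WT replicate 1, 4 without WT replicate 3 and 4 without *mtm* replicate R1.

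Among the endosomal and lysosomal genes nearest to the function of Mtm1, few lipid enzymes were called and a larger share of lysosomal genes was. The difference between these lists was not tested. Of the 12 tested myotubularins and relatives (median −0.08) edgeR called none (1 at an unadjusted p under 0.05 and 1 called by DESeq2, in both cases *mtm1*). Among 15 phosphoinositide kinases and phosphatases (median 0.60) 2 were higher, 13.3% against 9.74% over all genes. Their summed level was 171 to 209 CPM in WT and 232 to 389 CPM in *mtm* livers, with no overlap. *pik3c2a* was at 15.01 to 28.1 CPM in WT and 33.1 to 107 CPM in *mtm* livers (log2 fold change 1.57, SE 0.38, adjusted p = 0.0083, and adjusted p = 0.051 without WT replicate 1). *pi4k2a*, by its name a phosphatidylinositol 4-kinase and so not an enzyme of the lipids of Mtm1, was at 19.2 to 33.7 CPM in WT and 26.6 to 77.4 CPM in *mtm* livers (log2 fold change 1.03, SE 0.28, adjusted p = 0.016). The call of *pi4k2a* was lost without WT replicate 1, 2 or 3 or *mtm* replicate 2 (log2 fold changes of 0.83 to 1.07, adjusted p = 0.051 to 0.11). With the resubmitted libraries alone (adjusted p = 0.071) or only the 10 *mtm* and WT libraries it was lost as well. Of 32 recycling and dynamin genes 7 were higher and 1 lower (median 0.40). The Rab11 genes *rab11a* and *rab11ba* were at 98.9, 112, 79.2 and 48.3 CPM in WT livers against 123 to 159 CPM with a median of 142 (log2 fold change 0.70, SE 0.22, adjusted p = 0.033), and at 53.6 to 78.5 CPM in WT and 86.0 to 136 CPM in *mtm* livers (log2 fold change 0.69, SE 0.21, adjusted p = 0.030). Their calls were near the threshold. That of *rab11a* was lost without WT replicate 1, 3 or 4 or *mtm* replicate 2, 3, R1 or R3 (log2 fold changes of 0.51 to 0.74, adjusted p = 0.051 to 0.13). That of *rab11ba* was lost without any 1 WT replicate or without *mtm* replicate 2, R1 or R3 (0.53 to 0.76, adjusted p = 0.053 to 0.17). Both calls were also lost with the first submission alone (adjusted p = 0.13 for *rab11a* and 0.15 for *rab11ba*). The same held with same-numbered *mtm* libraries summed (0.082 and 0.051), with only the 10 *mtm* and WT libraries and with no filter on low counts. For *rab11a* it held also with the resubmitted libraries alone (0.095). The 7 higher genes of the list became 3 without WT replicate 1, 3 without WT replicate 3, 4 without WT replicate 4, 3 without *mtm* replicate 2, 4 without *mtm* replicate 3, 3 without *mtm* replicate R1 and 3 without *mtm* replicate R3. The ESCRT machinery, which sorts cargo into the lumen of endosomes, and the sorting nexins were higher in 11 of 40 cases and lower in none (median 0.48). *chmp1b* was at 45.4, 50.1, 59.9 and 62.0 CPM in WT livers and at 120.2 to 219.6 CPM with a median of 135 in *mtm* livers (log2 fold change 1.48, SE 0.20, adjusted p = 1.1e-04), the ATPase *vps4b* at 44.0 to 55.8 CPM in WT and 84.2 to 124.8 CPM in *mtm* livers (log2 fold change 1.103, SE 0.18, adjusted p = 4.5e-04), and *snx10a*, a sorting nexin required for acidification in osteoclasts of mammals, at 1.73 to 11.7 CPM in WT and 45.6 to 96.0 CPM in *mtm* livers (log2 fold change 3.54, SE 0.70, adjusted p = 0.0021).

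Lysosomal genes were higher in 18 of 48 cases and lower in 1 (median 0.71). Cathepsins, the lysosome's proteases, held 9 higher and 1 lower gene of 14, with *ctsk* at 4.87, 1.13, 3.196 and 7.85 CPM in WT livers and 19.9 to 122 CPM with a median of 80.8 in *mtm* livers (log2 fold change 4.25, SE 0.66, adjusted p = 2.9e-04) and *ctsc* at 9.34 to 11.9 CPM in WT and 27.7 to 58.4 CPM in *mtm* livers (log2 fold change 2.04, SE 0.29, adjusted p = 1.6e-04). The proton pump held 7 higher and none lower of 21, such as *atp6v0e1* at 166 to 199 CPM in WT and 284 to 411 CPM in *mtm* livers (log2 fold change 1.04, SE 0.21, adjusted p = 0.0021). The exception was *gusb*, a glucuronidase, at 256 to 876 CPM in WT and 184 to 361 CPM in *mtm* livers with overlapping ranges (log2 fold change −1.35, SE 0.25, adjusted p = 0.0014). Autophagy genes (median 0.16) were higher in 7 of 31 cases, 4 without WT replicate 3, led by the cargo receptors *sqstm1* at 47.1, 32.2, 61.3 and 74.6 CPM in WT livers and 124 to 283 CPM with a median of 172 in *mtm* livers (log2 fold change 1.92, SE 0.29, adjusted p = 2.8e-04) and *nbr1b* (log2 fold change 1.26, SE 0.24, adjusted p = 0.0015). Some cathepsins are macrophage genes, and *ctsl.1* is on both lists. The rise of macrophage markers given above moved with these genes, and its part in them was not tested. The largest log2 fold change among the proton pump genes was 1.52.

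Among genes of stress and growth control most calls were upward. Of 39 genes of p53 and growth arrest 12 were higher and 1 lower (median 1.03). *gadd45bb*, which is induced by stress, was at 5.26, 6.98, 3.48 and 7.08 CPM in WT livers and at 46.97 to 73.3 CPM with a median of 52.2 in *mtm* livers (log2 fold change 3.38, SE 0.24, adjusted p = 4.0e-07), and *phlda2*, a growth restraint in the mammalian placenta, at 2.24, 9.44, 2.13 and 13.9 CPM against 38.3 to 211 CPM with a median of 134 (log2 fold change 4.77, SE 0.59, adjusted p = 4.9e-05). *gadd45ga* was at 38.63 to 76.1 CPM in WT and 149 to 314 CPM in *mtm* livers (log2 fold change 1.90, SE 0.31, adjusted p = 4.1e-04). Immediate early genes (median 0.62) were higher in 11 and lower in 3 of 42 cases, with *klf6a* at 27.8 to 58.6 CPM in WT and 147 to 237 CPM in *mtm* livers (log2 fold change 1.93, SE 0.25, adjusted p = 6.7e-05), *maff* at 17.1 to 48.2 CPM in WT and 111 to 189 CPM in *mtm* livers (log2 fold change 2.23, SE 0.32, adjusted p = 1.6e-04) and, in the other direction, *dusp2* at 39.95 to 188 CPM in WT and 7.97 to 26.2 CPM in *mtm* livers (log2 fold change −2.40, SE 0.47, adjusted p = 0.0017). The 11 were 6 without WT replicate 1 and 6 without WT replicate 2. Of 79 cell cycle and DNA replication genes 4 were higher and none lower, 8 higher without *mtm* replicate 1. The share of higher genes, 5.06%, was below the 9.74% over all tested genes. The median of that list was 0.50, with a positive log2 fold change in 62 of the 79 genes and a summed level of 1227 to 2059 CPM in WT and 1513 to 3449 CPM in *mtm* livers. *socs3a*, the feedback inhibitor of cytokine receptors, was at 2.31, 15.8, 2.13 and 15.5 CPM in WT livers and 88.7 to 316 CPM with a median of 142 in *mtm* livers (log2 fold change 4.49, SE 0.54, adjusted p = 4.2e-05).

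Transcription factors of the hepatocyte were called at about the rate of all tested genes. Of 47 nuclear receptors and hepatocyte factors (median −0.04) 5 were higher (10.6%), 3 without WT replicate 1, and 4 lower (8.51%). The shares over all genes were 9.74% and 7.89%. *hnf1bb*, a factor of bile ducts, was at 6.86, 6.26, 14.7 and 21.5 CPM in WT livers and 27.6 to 53.6 CPM with a median of 32.7 in *mtm* livers (log2 fold change 1.94, SE 0.32, adjusted p = 4.5e-04). *creb3l3a*, a liver factor that drives lipid genes under fasting, was at 40.6 to 80.04 CPM in WT and 7.94 to 25.4 CPM in *mtm* livers (log2 fold change −1.77, SE 0.43, adjusted p = 0.0081, and −1.49, adjusted p = 0.059 without WT replicate 1). The estrogen receptor *esr2b*, from another list, was at 24.8 to 92.3 CPM in WT and 0 to 9.93 CPM in *mtm* livers (log2 fold change −4.09, SE 0.70, adjusted p = 6.8e-04). Hepatocyte markers as a list (median −0.54) fell in 11 and rose in 1 of 32 cases, 18 lower without *mtm* replicate 1, with the rise being that of *tat*. The list, which holds *apoa1b* and *apoa2*, summed to 255811 to 429267 CPM in WT livers (median 351739). In *mtm* livers it summed to 66430 to 290102 CPM (median 92357). The ranges overlapped only through *mtm* replicate 1.

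Transcripts of adjoining pancreas varied among the pools, and the summed level of heart genes was lower in every *mtm* pool than in any WT pool. Of 19 exocrine pancreas genes (median −1.44) edgeR called none (1 at an unadjusted p under 0.05, 1 by DESeq2), with a summed level of 1496 to 81162 CPM in WT and 344 to 24041 CPM in *mtm* livers, highest in WT replicate 4. Heart genes summed to 114 to 306 CPM in WT and 8.65 to 44.5 CPM in *mtm* livers, with no overlap (median −3.45). Of these 11 genes 2 were called lower, 7 by DESeq2 and 5 with no replicate block, with *myl7*, a light chain of atrial myosin, at 162, 97.3, 45.9 and 57.9 CPM in WT livers and 0.0459 to 5.50 CPM with a median of 2.103 in *mtm* livers (log2 fold change −5.42, SE 1.06, adjusted p = 0.0019). Skeletal muscle genes (median −0.36) were lower in 1 and higher in 0 of 20, with a summed level of 126 to 642 CPM in WT and 31.9 to 1939.6 CPM in *mtm* livers, highest in *mtm* replicate R2. Keratinocyte genes (median −0.33) were lower in 4 and higher in 3 of 22, 5 higher without WT replicate 4 or *mtm* replicate 1, the 3 including *epcam* and *krt8*, which ducts and other epithelia share.

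**Figure D5:**
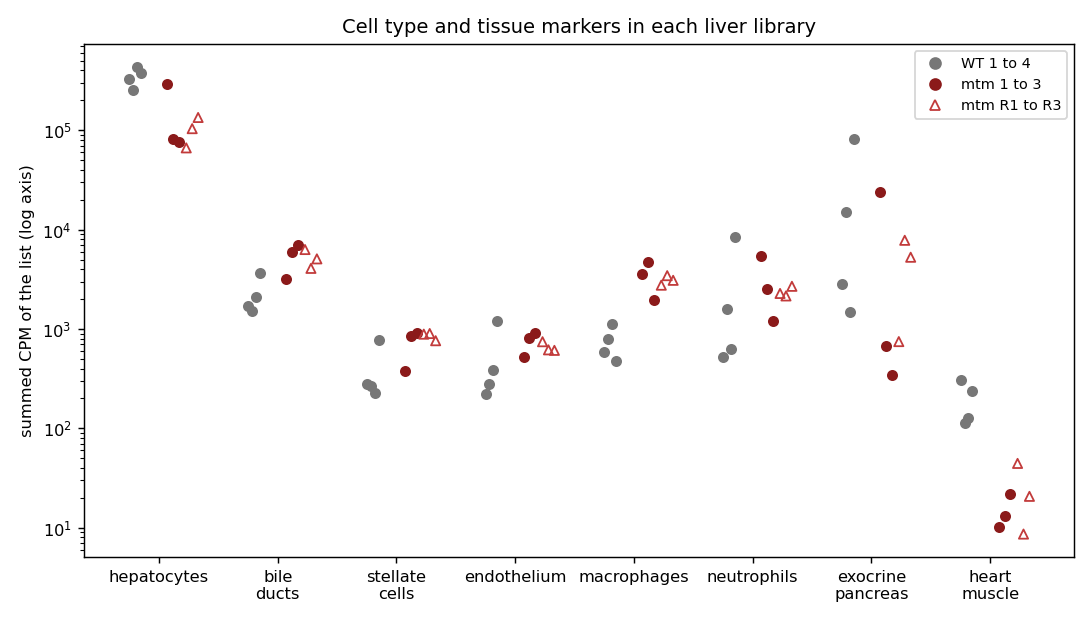
Summed level of the tested genes of 8 marker lists in each library (CPM, logarithmic vertical axis), WT in grey and *mtm* in red as above. Macrophage markers are higher in every *mtm* library than in any WT library, bile duct markers overlap through *mtm* replicate 1 and WT replicate 4, heart markers are lower in every *mtm* library than in any WT library, and exocrine pancreas markers span 344 to 81162 CPM with no separation by genotype.

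The genes with the largest changes lay partly outside the lists. Among named genes with at least 10 CPM in the higher group and no overlap, and again outside the inflammatory, cholesterol and transporter lists, the 15 largest rises included *scpp8*, a secreted calcium-binding phosphoprotein, at 0.103 to 0.512 CPM in WT and 6.19 to 28.4 CPM in *mtm* livers (log2 fold change 5.94, SE 0.70, adjusted p = 3.6e-05), and *asb11*, a substrate adaptor of ubiquitin ligases, at 0 to 1.11 CPM in WT and 2.91 to 32.8 CPM in *mtm* livers (log2 fold change 5.68, SE 1.28, adjusted p = 0.0051). *fabp6*, the ileal bile acid binding protein, was at 0 to 0.0641 CPM in WT livers and at 0.755, 0.734, 0.1499, 0.159, 78.7 and 14.3 CPM in *mtm* replicates 1, 2, 3, R1, R2 and R3, so that 2 resubmitted libraries held most of it. Its call was lost without WT replicate 2, 3 or 4 or *mtm* replicate R3 (adjusted p = 0.054 to 0.094). With the first submission alone (adjusted p = 0.12) or only the 10 *mtm* and WT libraries and the replicate block (0.096) it was lost too. The 15 largest falls included *thnsl2*, a threonine synthase-like gene, at 13.1 to 31.2 CPM in WT and 0 to 0.755 CPM in *mtm* livers (log2 fold change −6.38, SE 0.72, adjusted p = 2.4e-05), and *foxred1*, an assembly factor of complex I, at 4.61 to 21.6 CPM in WT and 0 to 2.16 CPM in *mtm* livers (log2 fold change −5.71, SE 0.94, adjusted p = 5.0e-04). A gene listed as *or109-11*, by its name an odorant receptor, was at 48.4, 49.6, 39.3 and 19.7 CPM in WT livers and at most 0.647 CPM in *mtm* livers (log2 fold change −8.09, SE 1.01, adjusted p = 5.3e-05). *ccl39.2*, a chemokine gene, was at 25.1, 5.65, 19.1 and 6.06 CPM in WT livers with no read in any *mtm* library, at least 438-fold lower against the same floor of 3 counts. The uncharacterised *LOC103910140*, chosen after its values were seen, was at 0.898, 1.95, 0.852 and 2.99 CPM in WT livers and at 5552, 2227, 449, 809, 902 and 713 CPM in *mtm* replicates 1, 2, 3, R1, R2 and R3 (log2 fold change 10.27, SE 1.18, adjusted p = 2.7e-05), and at 40.4 to 377 CPM in EtOH livers.

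Several of these changes were compared with livers of EtOH larvae in the same fit, which called 347 genes higher and 455 lower in *mtm* than in EtOH livers (2.64% and 3.46% of 13154). Both comparisons share the *mtm* libraries. Nuclear genes of oxidative phosphorylation were lower than in EtOH livers in 32 of 78 cases, and actin cytoskeleton genes were higher in 15 and lower in 1 of 58. Cell cycle genes were higher than in EtOH livers in 10 of 79 cases and lower in 0. *gatm* differed from EtOH livers by a log2 fold change of −3.69 (adjusted p = 0.0045), *gstp1* by −2.01 (adjusted p = 0.0022) and *pklr* by −1.94 (adjusted p = 0.0028). *pipox* differed by −6.29 (adjusted p = 0.0016), *mgll* by 2.11 (adjusted p = 0.0053) and *tjp1b* by 1.64 (adjusted p = 0.0064). For *pltp* the difference was 0.86 (adjusted p = 0.24), for *elovl2* −0.27 (adjusted p = 0.68), for *slc38a2* −0.28 (adjusted p = 0.65) and for *flna* 0.94 (adjusted p = 0.13), none of which passed the threshold. Over fatty acid oxidation genes, 3 of 33 were lower and 1 higher than in EtOH livers.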

How the data were processed

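RNA was measured in pools of whole zebrafish livers. The authors merged the runs of each library, checked reads with FastQC 0.11.09, trimmed adapters with Trim Galore 0.6.6 and estimated transcript levels with Salmon on GRCz11, and deposited expected counts, that is estimated counts per gene rounded to whole numbers and not normalized. No sequencing depth beyond the reads assigned to genes is known, and amplified reads without molecular identifiers are not independent molecules. In 15 rows of the table, 10 of them tested, a date stands in place of a gene name, and these are not named.

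Counts of the 18 libraries of the experiment (WT, *mtm*, EtOH and overfed) were fitted together in edgeR 4.0.16 (R 4.3.3) with TMM scaling, a quasi-likelihood model with group and replicate number as terms, after the study's design, and a summed count of at least 100 in the 10 *mtm* and WT libraries. The *mtm* libraries of both submissions formed 1 group. P-values were adjusted over all 13154 genes by the method of Benjamini and Hochberg. The SE is the log2 fold change divided by the square root of F. Gene lists were written from gene names. The members and lists were chosen with earlier results of these data known. Named genes were the 15 largest rises and falls past 4-fold with a mean of at least 10 CPM in the higher group, no overlap and no place on the lists of inflammatory mediators, cholesterol synthesis or hepatobiliary transporters, up to 4 genes per list by adjusted p, the endosomal genes next to *mtm1*, and the 10 largest gains and losses of mean CPM. Of the 162 genes given with values 124 follow that rule and 38 were chosen after their values were seen. Some genes that the rule names are not reported here. The pipeline was tested on simulated counts. The alternatives were size factors and a test from DESeq2 1.42.0, library totals, other filters, designs and subsets, and the removal of each library. Tables were made with Python 3.11.15, pandas 2.3.3 and scipy 1.17.1, and plots with matplotlib 3.10.9. Positions in the genome are not given, since no annotation of GRCz11 was used here.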

Additional observations from a re-analysis of the deposited data

Results flagged for a closer look

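In 20 of the 324 groups of 4 WT or 6 *mtm* libraries examined, 1 library lay far from the others in log2 CPM by Dixon's criterion, which chance meets in about 1 group in 20. Of these 10 concerned *mtm* replicate 1. In it *apoa2* (68777 CPM), *apoc2* (1737 CPM), *pgm1* (237 CPM), *sod1* (199 CPM), *hpx a* (17.1 CPM), *snx10a* (96.0 CPM) and *foxred1* (2.16 CPM) were the highest of the *mtm* livers, and *tmsb4x* (1430.5 CPM), *phlda2* (38.3 CPM) and *elovl1a* (5.61 CPM) the lowest. For all of these but *snx10a* that value was the nearest of the 6 to the WT range. WT replicate 4 was the lowest of its group for *g0s2* (61.4 CPM), *elovl2* (1614 CPM), *agla* (101 CPM) and *pnpla3* (49.7 CPM). *mtm* replicate R2 was the highest for *hk1* (61.6 CPM) and the lowest for *elovl5* (15.3 CPM), *rpia* (6.95 CPM) and *acacb* (0.323 CPM). WT replicate 1 was the lowest for *elovl1a* (1.41 CPM) and the only WT library with a read of *fabp6* (0.0641 CPM). Every gene named here was also called without the library in question.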

How the results depend on the processing

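Over the alternatives, 3491 of 3552 values of the 162 genes kept their direction and their side of the threshold, none reversed, and 150 of the 160 called genes were called throughout. The count of higher genes was 1968 with library totals and 809 with only the 10 *mtm* and WT libraries and the replicate block, and 796 to 1413 when single libraries were left out, the lowest counts without WT replicates 1, 2 and 3 (804, 834 and 796). The count of lower genes was 681 with library totals, 689 with only the 10 libraries and the replicate block, and 726 to 1277 when single libraries were left out. Past 4-fold the counts lay between 437 and 915 upward and between 346 and 591 downward. DESeq2 called 100 genes higher and 26 lower in the resubmitted than in the first *mtm* libraries, and 947 higher and 930 lower in *mtm* than in EtOH livers. Several list medians changed sign, that of lipid droplets to −0.21 in the resubmitted libraries alone and that of secretory coats to 0.14 with library totals. Library totals also turned positive the medians of antioxidant (0.24), retinoid (0.06), clotting (0.28) and keratinocyte genes (0.15). The same held for triglyceride and phospholipid synthesis (0.15) and nuclear receptors and hepatocyte factors (0.28). In the resubmitted libraries alone the sign also changed for autophagy (−0.04) and skeletal muscle (0.33). The causes were not tested. Without *mtm* replicate R2, 1193 of the 1281 higher and 970 of the 1038 lower genes were called again. Deviations of same-numbered libraries had correlations of −0.06 to −0.01 between WT and first *mtm* libraries, −0.04 to 0.23 between WT and resubmitted ones and −0.19 to 0.01 between the submissions. Libraries of other numbers gave −0.15 to 0.16, −0.23 to 0.14 and −0.11 to 0.15 in the same order. The value of 0.23 was that of WT replicate 2 and *mtm* replicate R2. So few correlations cannot decide whether the numbers pair samples. With no replicate block the counts were 1355 and 1098 against WT and 443 and 508 against EtOH livers. With only the 10 *mtm* and WT libraries and no replicate block they were 992 and 841 against WT. With same-numbered *mtm* libraries summed they were 1307 and 1095 against WT. Genes at a few CPM rest on few reads per library, and changes among them were detectable only where large.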
